A study of Danio rerio with 12 samples.

Results

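The Pbx and Meis genes encode homeodomain proteins that bind DNA together with Hox proteins. The 10 genes described here are pbx1a, pbx1b, pbx2, pbx3b, pbx4, meis1a, meis1b, meis2a, meis2b and meis3, chosen by name, and each was found as 1 identifier among the 25878 of the deposited table. 7 of them carry their own zebrafish symbol there. The other 3, pbx3b, meis1b and meis2a, were taken as the entries named PBX3, MEIS1 and MEIS2, since the names in use give no paralog letter for these identifiers, and they are written with those names below. Which of the related gene copies a read came from may not always be resolved.

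Pbx and Meis proteins belong to the TALE class, named for a short loop of extra amino acids in the homeodomain. Pbx proteins raise the DNA binding specificity of Hox proteins of most paralog groups, and Meis and the related Prep proteins bind Pbx, hold it in the nucleus and join the complex on DNA. In zebrafish, loss of Pbx function in the hindbrain removes much of the segment identity that Hox genes set. In mouse, Meis2 is needed for derivatives of the cranial neural crest.

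RNA came from trunk neural crest cells of zebrafish carrying the transgene sox10:H2B-Dendra2, in which the sox10 promoter drives a histone fused to a photoconvertible fluorescent protein. The 4 premigratory libraries were made at 16 hours after fertilisation from the dorsal trunk, and the 8 migratory libraries at 24 hours beside somites 10 to 15. Both groups had the same genotype and are labelled as control, and stage and position therefore change together. Each library held 20 sorted cells. The labels speak of 8 photoconverted embryos per population without tying embryos to libraries, and name leader and follower cells without saying which library holds which. The study compared crest before and after passage through narrow tissue spaces, with protection from DNA damage as its theme.

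The deposited normalised counts summed to 10735983 to 21711424 per premigratory and 17765775 to 24227327 per migratory library. Between 3650 and 6879 genes reached a normalised count of 10 in premigratory libraries, against 9007 to 11896 in migratory ones. SOX10 reached 10 in every library and crestin in 3 of 4 premigratory and 8 of 8 migratory libraries. Of all 15 identifiers of crest markers, 3 to 9 were at 10 or more in premigratory and 10 to 13 in migratory libraries. FOXD3 was at 10 or more in 2 of 4 premigratory and 8 of 8 migratory libraries. Several libraries stood apart. Premigratory replicate 3 had the fewest genes at 10 or more. Epidermal markers summed to 1900540 in premigratory replicate 1, where 11 of 11 were at 10 or more, and blood markers to 1782570 in migratory replicate 5, where 8 of 9 were, against at most 19272 in any other library.

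Of the 10 genes, 8 had enough signal to be tested, and none of these 8 passed the test between premigratory and migratory crest. Over all tested genes 12.4% passed as higher and 0.132% as lower, so none among 8 does not set these genes apart. pbx4 reached 10 in all 12 libraries, and pbx2 and MEIS1 in 10 each. The other 7 genes were at 100 or more in some libraries and mostly at or near 0 in the rest, and 2 of them, pbx1b and PBX3, exceeded 10 in no premigratory library. Of the 120 values of the 10 genes, 53 were at 100 or more, 61 were under 10 and 6 lay between. Under 10 were 57.5% of their premigratory and 47.5% of their migratory values, while for all identifiers these shares were 78.8% and 59.2%. Among tested genes only, the shares were 46.9% and 39.1% for Pbx and Meis genes and 58.3% and 23.6% for all, so the order in migratory libraries depends on which genes are compared.

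**Figure D1:**
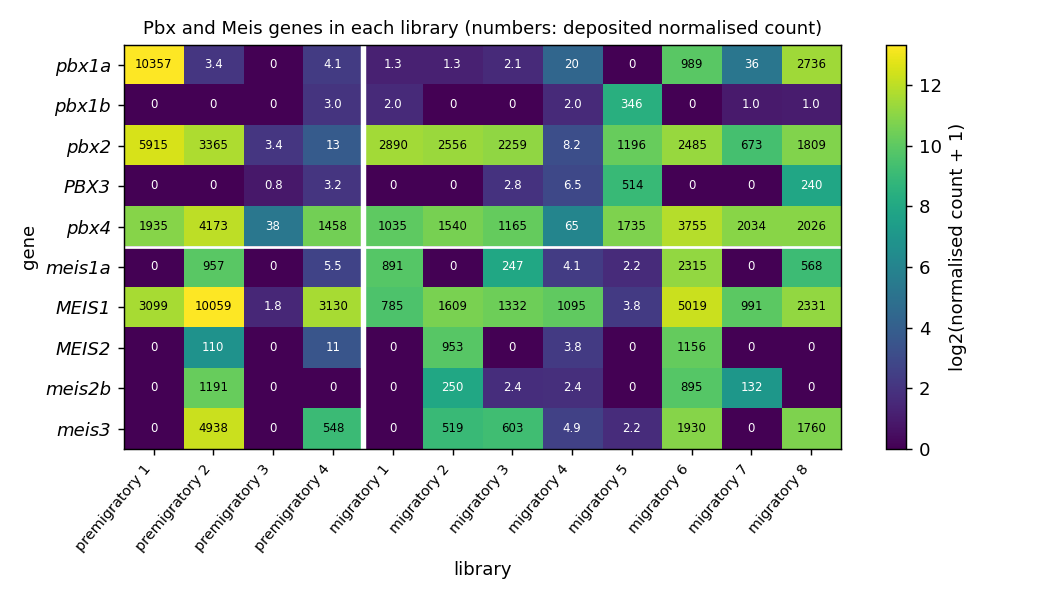
Heat map of the 10 Pbx and Meis genes (rows) in the 12 libraries (columns, premigratory left of the white line), coloured by log2(normalised count + 1), with the deposited normalised count printed in each cell. The row of pbx4 is filled throughout, while premigratory replicate 3 has 1 value over 10 and migratory replicate 6 has 8.

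pbx4, known in zebrafish as lazarus, is the Pbx gene used broadly in the early embryo. Its normalised counts in premigratory replicates 1 to 4 were 1935, 4173, 37.7 and 1458. In migratory libraries they ran from 65.4 in replicate 4 over a median of 1638 to 3755 in replicate 6. The groups overlapped, and each had 1 library far under the rest. The means were 1901 ± 1716 (SD, n = 4) and 1670 ± 1060 (SD, n = 8), and the log2 fold change was 0.50 (95% interval -2.37 to 3.37).

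pbx2 acts together with pbx4 in the zebrafish hindbrain. It stood at 5915, 3365, 3.37 and 13.2 in premigratory replicates 1 to 4. In migratory libraries it ran from 8.20 in replicate 4 over a median of 2034 to 2890 in replicate 1. It was thus high in 2 of 4 premigratory and in 7 of 8 migratory libraries, with the highest values before migration. Its log2 fold change of 2.31 (95% interval -2.01 to 6.64) had the smallest adjusted p of the tested Pbx and Meis genes (limma with Benjamini-Hochberg adjustment, adjusted p = 0.450).

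pbx1a reached its highest value, 10357, in premigratory replicate 1, the library richest in epidermal markers. The other premigratory values were 3.40, 0 and 4.06, the last in replicate 4, where epidermal markers summed to 337290. In migratory libraries the lowest value was 0, the median 10.9 and the highest 2736 in replicate 8, followed by 989 in replicate 6. Epidermal markers summed to 666078 in migratory replicate 8 and to 531435 in replicate 1, where pbx1a was at 1.35. The log2 fold change was -0.08 (95% interval -5.52 to 5.37), and 2.89 without premigratory replicate 1 (limma, adjusted p = 0.419). The part of epidermal cells in the high values was not tested.

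pbx1b was over 10 in 1 library only. It was listed at 0 in premigratory replicates 1 to 3 and at 3.02 in replicate 4, and had a median of 0.977 in migratory libraries, with 346 in replicate 5. PBX3, whose mouse counterpart is needed for breathing control, was over 10 in migratory replicates 5 (514) and 8 (240). Its premigratory values were 0, 0, 0.799 and 3.18. Both genes lay below the filter on low values, a normalised count of 10 in at least 4 libraries, and were not tested. Their highest values were both in migratory replicate 5, the library richest in blood markers, and the part of blood cells in them was not tested.

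MEIS1 was the Meis gene found in most libraries. Meis1 is known in zebrafish for keeping retinal progenitors dividing. It stood at 3099, 10059, 1.79 and 3130 in premigratory replicates 1 to 4, and from 3.76 in replicate 5 over a median of 1213 to 5019 in replicate 6 in migratory libraries. The other 7 migratory libraries lay at 785 or more. The means were 4072 ± 4252 (SD, n = 4) and 1646 ± 1518 (SD, n = 8), while the fitted log2 fold change was 0.06 (95% interval -4.34 to 4.46). That value rests on premigratory replicate 3, since it was -2.61 without this library (limma, adjusted p = 0.322).

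meis1a, its copy, was at 957 in premigratory replicate 2, at 5.46 in replicate 4 and listed at 0 in replicates 1 and 3. In migratory libraries it ran from 0 over a median of 126 to 2315 in replicate 6, with 4 of 8 libraries at 100 or more. The log2 fold change was 2.11 (95% interval -3.20 to 7.43).

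meis3, a hindbrain patterning gene in fish and frog that also acts in zebrafish enteric crest, stood at 0, 4938, 0 and 548 in premigratory replicates 1 to 4. In migratory libraries it had a lowest value of 0, a median of 262 and a highest of 1930 in replicate 6. It was at 100 or more in 2 of 4 and in 4 of 8 libraries, and the log2 fold change was 0.18 (95% interval -5.78 to 6.15).

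Both Meis2 genes appeared in few libraries. MEIS2 was at 0, 110, 0 and 10.6 in premigratory replicates 1 to 4. Its migratory median was 0, with 953 in replicate 2 and 1156 in replicate 6. meis2b was at 1191 in premigratory replicate 2 and listed at 0 in the other 3. Its migratory median was 2.40, with 895, 250 and 132 in replicates 6, 2 and 7. The 2 genes were thus high together in premigratory replicate 2 and migratory replicates 2 and 6. The log2 fold changes were 0.21 (95% interval -4.48 to 4.91) and 0.99 (95% interval -3.93 to 5.91).

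**Figure D2:**
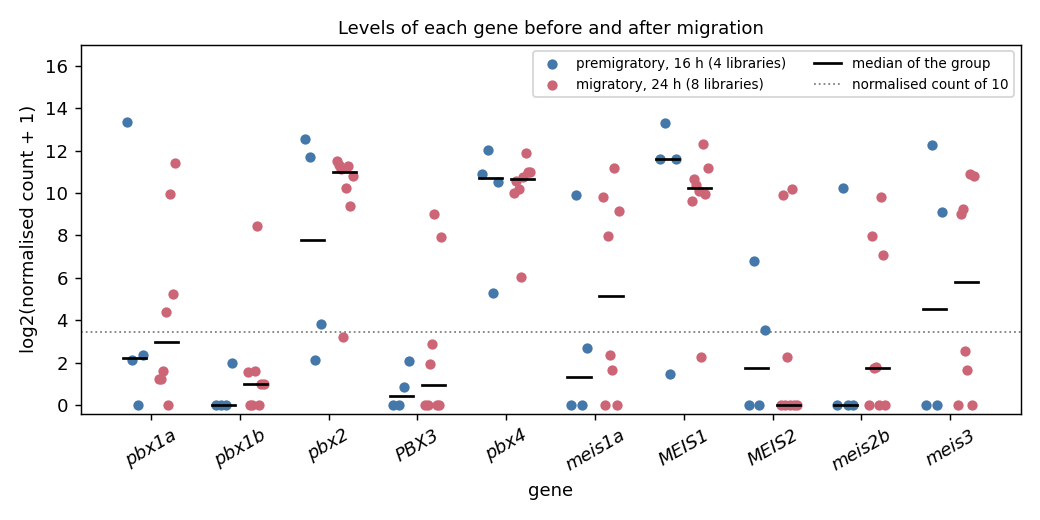
Log2(normalised count + 1) of each Pbx and Meis gene in 4 premigratory (blue) and 8 migratory (red) libraries, 1 point per library, with black bars at group medians and a dotted line at a normalised count of 10. The groups overlap for all 10 genes, and most genes have points near 0 in both groups.

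8 of the 10 genes passed the filter and were tested, and 0 were called in either direction. The test was limma on log2(normalised count + 1) over 12122 genes. Of these, 12.4% were called higher in migratory crest (1508 genes) and 0.132% lower (16 genes), at an adjusted p under 0.05. A gene found only after migration could pass the filter with 4 of 8 libraries, while one found only before needed all 4. The numbers of higher and lower genes are therefore not on equal terms. With quantile normalisation the counts were 223 higher and 34 lower, and with the shared library number as a replicate block, a fit with 3 residual degrees of freedom, they were 0 and 0. Adjusted p was 0.450 for pbx2, 0.585 for meis1a, 0.794 for meis2b, 0.823 for pbx4, 0.959 for MEIS2, 0.972 for meis3, 0.986 for pbx1a and 0.987 for MEIS1. None of the 8 had an unadjusted p under 0.05, which 3850 higher and 80 lower genes reached.

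The median log2 fold change of the 8 tested Pbx and Meis genes was 0.36, beside 2.67 over all tested genes and 0.21 over the 1153 genes at 10 or more in every library. Of the 8, only pbx4 belongs to that last set. The members' median was -0.28 with median of ratios and -0.71 with quantile normalisation, beside 1.86 and 0.61 over all tested genes. It was -0.81 without premigratory replicate 3 and -0.038 without migratory replicate 6, and above 0 in all other runs. The upward shift of tested genes goes with the larger number of genes at 10 or more in migratory libraries, whose part in it was not tested. None of the 8 had all migratory libraries above or all below all premigratory ones, which held for 4.83% and 0.14% of tested genes. The intervals were wide: that of pbx4, the narrowest, reached from -2.37 to 3.37 and so includes both 0 and the median of all genes. Neither the absence of a change nor a difference from other genes follows from them. In bulk libraries, fewer cells that express a gene and less RNA per cell cannot be told apart.

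**Figure D3:**
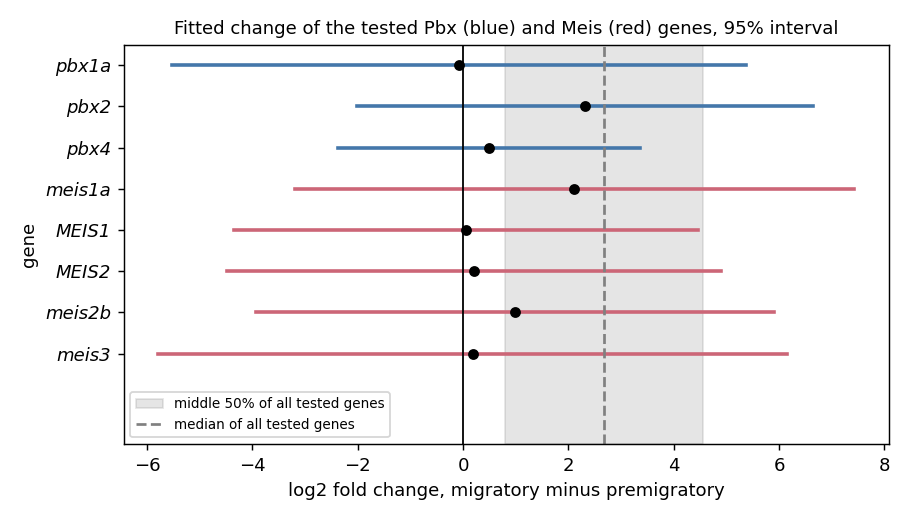
Fitted log2 fold change (points) and 95% interval (lines) of the 3 tested Pbx genes (blue) and 5 tested Meis genes (red), with the median of all 12122 tested genes (dashed, 2.67) and their middle 50% (grey band). All 8 intervals span 0.

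Within the 4 numbers that both stages share, which the labels give as batch and as biological replica without naming a shared day or clutch, the differences were of mixed sign. In batch 3, where the premigratory library had the fewest detected genes, pbx2 was higher in the migratory library by 9.01 on the log2 scale, MEIS1 by 8.90, meis3 by 9.24 and pbx4 by 4.91. In batches 1, 2 and 4 these 4 genes were lower in the migratory library or, for meis3 in batch 1, listed at 0 in both. pbx2 differed there by -1.03, -0.40 and -0.62, MEIS1 by -1.98, -2.64 and -1.51, and pbx4 by -0.90, -1.44 and -4.46. meis1a differed by 9.80, -9.90, 7.95 and -0.33 in batches 1 to 4.

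The genes of the family varied widely between libraries of the same stage. Premigratory replicate 2 had 7 of the 10 at 10 or more, including all 5 Meis genes. Replicates 4 and 1 had 5 and 4, and replicate 3 had pbx4 alone. Among migratory libraries the count ran from 3 in replicate 4 to 8 in replicate 6. Migratory replicate 5 had 4 Pbx genes and no Meis gene at 10 or more, and its Meis values summed to 8.12, against 1110 to 11315 in the other 7 migratory libraries. It also had the highest summed blood markers. Migratory replicate 6, with the largest summed Meis value of its group, had 11645 genes at 10 or more.

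The 10 genes together took 0.0981%, 0.153%, 0.000274% and 0.0482% of the summed normalised counts in premigratory replicates 1 to 4. In migratory libraries the share ran from 0.00637% over a median of 0.0293% to 0.0765%. The highest share was in a premigratory library, and the groups overlapped.

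Hox genes encode the partners of these proteins. Of 48 Hox identifiers, 2 to 8 were at 10 or more in premigratory and 10 to 39 in migratory libraries, with no overlap, as was also true of the number of all genes at 10 or more. The corresponding counts of Pbx and Meis genes, 1 to 7 and 3 to 8 of 10, did overlap. Premigratory replicate 2 had 7 Pbx and Meis genes but 6 Hox identifiers at 10 or more, while migratory replicate 2 had 6 and 30. Of 32 tested Hox identifiers 11 (34.4%) rose and 0 fell, with a median log2 fold change of 5.73, beside 12.4% higher and a median of 2.67 over all tested genes. Nearly all of these 11 passed the filter through migratory libraries alone. Genes found only before migration pass it less easily. With the replicate block no gene of the table was called. The difference between the Hox and the cofactor genes was itself not tested.

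**Figure D4:**
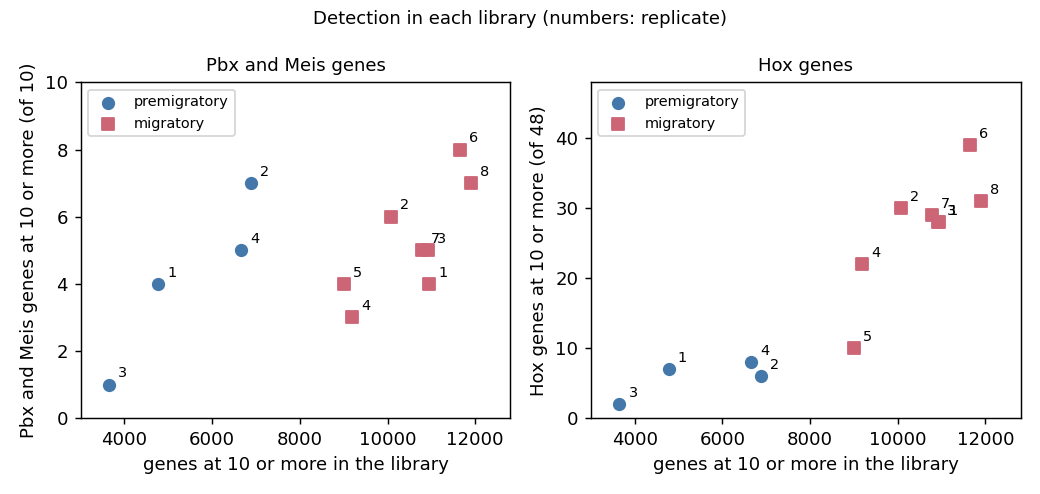
Number of Pbx and Meis genes (left, of 10) and of Hox identifiers (right, of 48) at a normalised count of 10 or more against the number of all genes at 10 or more, 1 point per library labelled with its replicate number. Premigratory libraries (blue circles) reach 7 cofactor genes but at most 8 Hox identifiers, and migratory libraries (red squares) 8 and 39.

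Of 18 identifiers of other TALE genes 6 were tested, 2 rose and 0 fell, beside 12.4% higher and 0.132% lower over all tested genes. The 2 that rose were under 10 in every premigratory library and passed the filter through migratory libraries alone. Genes found only before migration pass it less easily, so the numbers of risen and fallen genes are not on equal terms. PKNOX1, which encodes the Prep1 protein that also binds Pbx, has 2 identifiers. ENSDARG00000036542 stood at 0.977, 1.91, 1.95 and 0.972 in premigratory replicates 1 to 4 and at 14.2 to 969 in migratory libraries, with a median of 431. All migratory libraries lay above all premigratory ones, as was the case for 4.83% of all tested genes. The means were 1.45 ± 0.551 (SD, n = 4) and 420 ± 354 (SD, n = 8). The log2 fold change was 6.49 (SE 1.55; limma, adjusted p = 0.0149). It was 5.67 with the replicate block, which called no gene at all (adjusted p = 0.225), 2.96 with quantile normalisation (0.313) and 4.39 with a pseudocount of 10 (0.0531).

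The other PKNOX1 identifier, ENSDARG00000018765, was at 0.991, 5845, 0 and 3.86 in premigratory replicates 1 to 4 and at 44.8 to 2002 in migratory libraries. It did not pass (log2 fold change 5.10, limma, adjusted p = 0.113). It passed in 1 of 26 alternative runs, without premigratory replicate 2, its 1 high premigratory library (adjusted p = 0.00691). In the other runs its adjusted p reached 0.498. Reads of the 2 copies may be split between them. With both identifiers summed, PKNOX1 was not called. irx4b, an Iroquois gene, rose from 0, 1.18, 0 and 5.38 to a median of 873, with migratory values of 0.834 to 3197 (log2 fold change 7.24, limma, adjusted p = 0.0361). Its call was lost with the replicate block (log2 fold change 7.57, adjusted p = 0.190), with quantile normalisation (5.49, 0.152), a pseudocount of 10 (0.0676), no filter (0.0742), the same total (0.0514) and median of ratios (0.0625), and without any 1 of premigratory replicates 1 to 3 or migratory replicates 2, 3, 6, 7 and 8 (0.0513 to 0.0961). TGIF1, a repressor in TGF-beta and retinoid signalling, was at 3.72, 5914, 7387 and 2916 and at 453 to 7391 (adjusted p = 0.596). pbx3a did not exceed 3.39 in any library.

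Among partners and regulators of Pbx and Meis proteins, 13 of 23 identifiers were tested, 1 (7.69%) rose and 0 fell, which is not above the 12.4% over all tested genes. The 1 that rose passed the filter through migratory libraries alone. NR2F1, an orphan nuclear receptor, rose in its identifier ENSDARG00000052695 from at most 1.99 in premigratory libraries to a migratory median of 295, with 0.974 as the lowest value (log2 fold change 6.07, limma, adjusted p = 0.0340). This call was lost in 14 of 25 alternative runs. Among them were the replicate block (log2 fold change 4.40, limma, adjusted p = 0.280), quantile normalisation (2.02, 0.542) and a pseudocount of 10 (0.0851). Others were no filter (0.0906), a mean of 10 or more as the filter (0.0504) and median of ratios (0.0717). The call was also lost without any 1 of the premigratory libraries (0.0642 to 0.0720) and without migratory replicate 3, 6 or 7 (0.0520 to 0.0530). The other NR2F1 identifier stood at 0, 17.4, 52.0 and 1.98 in premigratory replicates 1 to 4. Its migratory median was 3.71 and its highest migratory value 18.3. It lay below the filter and was not tested. pbxip1a, which encodes a protein that binds Pbx, was at 1.43 or less before migration and had a migratory median of 120 (adjusted p = 0.0991). The deacetylase gene hdac3 had medians of 936 and 1755 (adjusted p = 0.118), and the kinase gene GSK3B of 1266 and 1718 (adjusted p = 0.161). hdac3 passed in 1 of 26 alternative runs, without premigratory replicate 3 (limma, adjusted p = 0.0449). GSK3B also passed in 1 of 26, without premigratory replicate 2 (adjusted p = 0.0441). In the other runs adjusted p reached 0.331 for hdac3 and 0.436 for GSK3B.

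Retinoic acid is a known inducer of Meis and of many Hox genes. Of 28 identifiers of its pathway 16 were tested and 0 passed in either direction (limma), beside 12.4% higher and 0.132% lower over all tested genes. An unadjusted p under 0.05 was reached by 5 of the 16, beside 3850 higher and 80 lower of all 12122 tested genes. Their median log2 fold change was 2.26, beside 2.67 over all tested genes. The 4 with the smallest p were both DHRS3 identifiers, which encode a reductase that limits retinoic acid, with log2 fold changes of 6.49 and 5.36 (adjusted p = 0.0543 and 0.0817), the receptor gene RARG with -6.01 (adjusted p = 0.0861) and the binding protein gene CRABP2 with 5.49 (adjusted p = 0.119). The other CRABP2 identifier gave a log2 fold change of 0.69 (limma, adjusted p = 0.885). The other RARG identifier did not exceed 1.02 in any library and was not tested. The tested RARG identifier was at 1129, 2684, 5041 and 3.45 in premigratory replicates 1 to 4. It had a migratory median of 2.43 and a highest migratory value of 615. It passed as lower in 2 of 25 alternative runs, without premigratory replicate 4 (limma, adjusted p = 0.0292) or migratory replicate 5 (0.0420). In the other runs its adjusted p reached 0.230. The first DHRS3 identifier passed as higher in 2 of 25 runs, without migratory replicate 1 or 3 (0.0218 and 0.0305). The second passed in 4 of 26 runs. These were without migratory replicate 2 or 5 (0.0452 and 0.0300) and without premigratory replicate 1 and migratory replicate 5 together (0.0493). The last was with both DHRS3 identifiers summed (log2 fold change 7.99, adjusted p = 0.00272). In the other runs adjusted p reached 0.281 for the first and 0.627 for the second.

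Muscle and spinal cord are tissues near the crest in which Meis and Pbx genes are also used. Muscle and somite markers, with 3 to 5 of 16 at 10 or more and sums of 611 to 3793 in premigratory libraries, reached 7 to 14 of 16 and sums of 1109 to 750218 in migratory ones. The number of all genes at 10 or more did not overlap between the groups either (3650 to 6879 and 9007 to 11896). Spinal cord markers summed to 68.7 to 13760 and 491 to 24502, with 2 to 4 and 2 to 7 of 16 at 10 or more. The part of such cells in the Pbx and Meis values was not tested.

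Among the family, pbx2 and pbx4 had the highest Pearson correlation of log2(normalised count + 1). It was 0.81 over 12 libraries and 0.90 over the 8 migratory ones. MEIS2 and meis2b followed with 0.79 and 0.80. The 0.90 of pbx2 and pbx4 rests on migratory replicate 4, where both had their lowest migratory value (8.20 and 65.4). The lowest value, -0.56 and -0.97, was between pbx1b and MEIS1, and rests on migratory replicate 5, the only library with pbx1b over 10. These values are descriptions over libraries that also differ in the number of genes at 10 or more, whose part in them was not tested. Over 12 libraries, the genes with the pattern most like that of pbx2 were CTTN (0.991), KPNA5 (0.989), tgoln2 (0.987) and ZFPL1 (0.980). For MEIS1 they were RNPC3 (0.964), smco4 (0.962), MAX (0.950) and si:ch211-216l23.2 (0.944). Over the 8 migratory libraries alone they were MMAA, HERPUD2, AGPAT5 and tgoln2 for pbx2 (0.991 to 0.997) and SPRY4, MTA3, ZNF710 and VDAC3 for MEIS1 (0.985 to 0.995). Only tgoln2 was in both sets, and with 12122 genes and few libraries high values are common. Among the migratory libraries, 1 lay far under the rest for each gene. It was replicate 4 for pbx2 (8.20) and replicate 5 for MEIS1 (3.76). How far the values over the 8 migratory libraries rest on it was not tested.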

How the data were processed

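RNA was amplified with the SMART-Seq v4 kit and libraries were made by Nextera tagmentation, per the labels' protocols. The submitters' processing notes list fastp 1.0, Salmon and the build GRCz11 without saying what each did. The authors deposited a normalised signal per gene, made from counts as the table's name says. How they normalised or filtered it is not given in the sources used here. Median of ratios, run on the deposited values, gave factors that did not overlap between the stages. The premigratory factors lay between 0.429 and 0.952, while every migratory factor was 0.991 or more, with 2.06 as the highest. Factors from the same total and from the trimmed mean of M values did overlap. The main fold changes took the values as deposited, so they are not on a scale that is level under median of ratios. Low values were whole multiples of 1 step, within 0.02 of a step, in only 8.78% to 33.0% of cases per library, so reads were not recovered and no count model was run. Depth is known only from the sums, and reads amplified without molecular identifiers cannot be counted as molecules. Of 25878 identifiers 23604 matched a symbol, and 0 columns were left out. The highest Pearson correlation between libraries was 0.662, so none was a copy.

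The labels' library names gave the groups and columns. limma 3.58.1 (R 4.3.3; lmFit, eBayes with trend) compared the groups on log2(value + 1), over 12122 genes at 10 or more in at least 4 libraries, with Benjamini-Hochberg adjustment over all of them and calls under 0.05. Such fold changes understate the change of low genes. Values at 0 are given as listed, since a 0 can also be a failed estimate. Levels were not tested between genes, since transcript lengths were not used here. Sums over genes and the choice of the gene with the highest mean took the values as deposited. The members and lists were chosen with earlier results of these data known. From each other list the 4 genes with the smallest p and every called gene up to 6 were to be named, save for Hox genes, which are counted only. Symbols not found were matched without their paralog letter or numbered suffix. The 4 genes most alike were taken for the Pbx and the Meis gene with the highest mean.

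The labels call the replicate number a batch, so it was taken to pair libraries 1 to 4, although they also call it a biological replica and name no day or clutch shared between stages. The libraries' deviations from their group mean had correlations of 0.155, 0.0118, 0.0424 and 0.0342 in these pairs, and at -0.0087 on average (highest 0.123) for other numbers. Batches 5 to 8 hold migratory libraries only. Replicates are labelled as biological, and the p-values refer to the spread among these libraries only. Other settings tried were the scaling, the filter, the pseudocount, weights, the variance trend, the block, identifiers summed by symbol and left-out libraries. The script was tested on simulated data. Tables were made in Python 3.11.15 with pandas 2.3.3 and numpy 2.4.6, and figures with matplotlib 3.10.9.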

Additional observations from a re-analysis of the deposited data

Results flagged for a closer look

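The 22 groups checked were each gene on the log2(normalised count + 1) scale and the number of Pbx and Meis genes at 10 or more, per stage. In 7, a library's gap to its nearest neighbour took more of the range than Dixon's critical value (0.829 for 4 and 0.526 for 8 libraries). Chance gives about 1 in 20 for normally distributed values. Of the 120 values of the genes, 35 were listed at 0. Migratory replicate 4 was lowest for pbx2 (gap of 0.747 of the range) and for pbx4 (0.681). Migratory replicate 5 was lowest for MEIS1 (0.734) and highest for pbx1b (0.811). Premigratory replicate 3 was lowest for MEIS1 (0.856). Premigratory replicate 2 was highest for meis2b and premigratory replicate 4 for pbx1b, each with a gap of 1 because the other 3 libraries were listed at 0. Migratory replicate 4 had 9184 genes at 10 or more and 22180 above 0, the most above 0 of any library. The causes were not tested.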

How the results depend on the processing

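No Pbx or Meis gene was called under any alternative run (0 of 200 values of the 8 tested genes), and 153 of these kept the direction of the reported value. The values are refits of the same genes on the same libraries, not separate trials. Over all tested genes 0% to 16.4% were called higher in these runs, with 0% for the replicate block. pbx2 and meis1a stayed above 0 throughout, at 0.10 to 3.97 and 0.96 to 4.37. For the others the sign was not stable, and the cause was not tested. pbx1b and PBX3, below the filter, gave 1.19 and 1.99 without a filter (limma, adjusted p = 0.681 and 0.634) and with a mean of 10 or more as the filter (0.633 and 0.503). pbx1a turned to 0.0033 with a pseudocount of 0.5, 1.08 with array weights and 3.51 without premigratory replicate 1 and migratory replicate 5, an alternative chosen after seeing the data. pbx4 turned to -0.65 with median of ratios, -0.76 with quantile normalisation and -0.47 with the replicate block. MEIS1 and meis3 turned with a pseudocount of 10 (-0.26 and -0.24). With the same total, median of ratios, trimmed mean of M values, quantile normalisation and array weights, MEIS1 gave -0.30, -1.01, -0.30, -1.57 and -0.0048, MEIS2 -0.067, -0.18, -0.0027, -1.17 and -0.44, and meis3 -0.18, -0.37, -0.11, -0.66 and -0.068. meis3 also turned with the replicate block (-0.14), and MEIS2 and meis3 in the alternative chosen later (-0.25 and -1.05). meis2b turned with quantile normalisation (-0.012), as did TGIF1 (-0.23, and -0.89 in the alternative chosen later).

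Leaving out 1 library at a time gave -1.56 to 2.89 for pbx1a, -0.97 to 1.28 for pbx4, -2.61 to 1.33 for MEIS1, -0.65 to 0.61 for MEIS2, -1.60 to 2.49 for meis3 and -1.21 to 2.32 for TGIF1. MEIS2 and meis2b lay below the filter without 4 of the 12 libraries and gave no value there. Over all genes it gave 771 to 1911 higher and 6 to 19 lower calls, with 771 without premigratory replicate 3, and 8, 6, 10, 9, 8 and 7 lower ones without premigratory replicates 2 and 3 and migratory replicates 2, 3, 7 and 8. Higher and lower calls were 821 with a pseudocount of 10, 851 and 7 without a filter, 765 and 58 with median of ratios, 223 and 34 with quantile normalisation and 0 and 0 with the replicate block, and 5 lower with array weights. The median log2 fold change of all genes was 0.61 with quantile normalisation. The block, with 3 residual degrees of freedom and no call in the table, says nothing on the stability of the Pbx and Meis genes. In simulated data for this comparison with 12122 genes, 200 genes were changed, 67, 67 and 66 of them by 2, 4 and 8 on the log2 scale. Of these, 1.49%, 4.48% and 30.3% were recovered, with 3 false calls among the other genes. The noise was shuffled within each gene, so effects shared by a whole library were not kept. The simulated noise was the deviation from the mean of all 12 libraries, so it also held the difference between stages. These rates can therefore understate recovery in the real comparison, and how many moderate changes were missed there is not known.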

Other observations

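A TALE gene chosen after its values were seen, irx7, stood at 0.986, 2473, 0 and 3779 in premigratory replicates 1 to 4. In migratory libraries it was listed at 0 in most and did not exceed 0.996. It lay below the filter on low values, since a gene seen in 2 premigratory libraries only cannot reach 10 in 4 libraries, and was not tested.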
